A study of Mus musculus with 2 samples.

Results

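The mouse (mmu) miRNAs mmu-miR-144, mmu-miR-451a, mmu-miR-451b, mmu-miR-486a and mmu-miR-486b were followed on 2 microarrays of mononuclear cells from the lamina propria of the mouse colon, the connective tissue layer under the gut epithelium. The probes were chosen by name, counting every arm of the 5 precursors, which gave 7 of 1900 mouse miRNA probes and 8 of 1915 mature miRNA names. 1 of the 7 probes is shared by miR-486a-5p and miR-486b-5p. The groups were male Balb/c mice kept SPF (specific pathogen-free), whose gut holds microbes, and male Balb/c mice kept germ-free, whose gut holds none, with 1 array for each. The labels do not give the age of the mice or the number of animals behind each array, and 1 array per group means that no value has a replicate error and that no test between groups was possible. The title of the series names the influence of the gut microbiota on miRNA expression as its subject, and SPF over germ-free is the comparison the labels allow.

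miR-144 and miR-451a are made from a common primary transcript that the transcription factor GATA1 switches on in red cell precursors, and miR-451a is among the main miRNAs of red cells. miR-451a is unusual in that its hairpin is cut by Argonaute 2 and not by Dicer. miR-486 lies in an intron of Ank1, the gene of the red cell membrane protein ankyrin-1, and is expressed in red cell precursors and in striated muscle. In tissue isolates these miRNAs are known as markers of red cells, which a mononuclear preparation can still hold.

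In GENCODE M21 (GRCm38), Mir144 lies on chromosome 11 at chr11:78073005-78073070 on the plus strand. Mir451a follows at chr11:78073170-78073241, with 99 bases between the hairpins. Mir451b occupies the same bases as Mir451a on the minus strand, and the RefSeq hairpins of both are exact reverse complements of each other. Mir486 lies on chromosome 8 at chr8:23142555-23142682 on the plus strand, within Ank1 and outside its annotated exons. The gene of miR-486b, listed as Mir3107, lies on the opposite strand within the same stretch, at chr8:23142573-23142662. The mature sequences of 4 member names were available from RefSeq (GRCm38.p6), and they are shown because the seed decides which mRNAs each recognises. Capitals mark the seed, bases 2 to 8 from the 5′ end.
mmu-miR-144-5p: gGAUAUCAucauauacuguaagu
mmu-miR-144-3p: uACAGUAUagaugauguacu
mmu-miR-451a: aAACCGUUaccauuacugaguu
mmu-miR-451b: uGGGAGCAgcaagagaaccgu

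The 4 seeds differ from each other, and none of them is shared with another of the 1679 mature miRNAs in the RefSeq table. Over bases 2 to 7, miR-144-3p matches 1 further miRNA, miR-101a-3p. The longest run that miR-451a and miR-451b have in common is 6 bases. The Mir451a hairpin is given with the mature miRNA in capitals.
Mir451a hairpin: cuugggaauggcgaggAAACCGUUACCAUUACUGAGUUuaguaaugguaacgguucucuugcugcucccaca

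The mature part runs from base 17 to base 38 of 72 and so crosses the midpoint of the hairpin. In the Mir144 hairpin, where the capitals again mark the mature miRNAs, the arms lie on either side of the loop.
Mir144 hairpin: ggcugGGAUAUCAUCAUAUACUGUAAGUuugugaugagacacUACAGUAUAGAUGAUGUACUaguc

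Each probe has 1 spot on each array. The mean of the blank spots, 158.3 on the SPF array and 128.5 on the germ-free array, was subtracted from each spot, and a probe counted as above the floor when its net intensity passed 2 SD of the blank spots, 10.7 on the SPF and 9.05 on the germ-free array. SPF values were then multiplied by 0.849 so that the median of the 1471 probes above the floor on both arrays was equal, a shift of -0.24 on the log2 scale. The technical SD given after ± combines the spread of repeated bright control spots, which was 0.092 on the log2 scale within an array, with the spread of the blank spots over the probe's signal. It holds no spread between arrays or animals. Spots that carry no probe, called empty spots here, were brighter than blank spots and give a stricter level, mean + 2 SD, of 202.2 on the SPF array and 165.8 on the germ-free array.

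All 7 member probes were above the floor on both arrays, and 5 of them were also above the empty-spot level on both. Of the 7 probes, 6 were lower on the SPF array than on the germ-free array, with log2 SPF over germ-free at a median of -0.45, or 1.36-fold lower, and in a range from -0.77 to 0.09. Over all 1471 shared probes the median was -0.06 and 57.6% were lower on the SPF array. No member reached a 2-fold difference in either direction, a size that 1.43% of the shared probes reached downward and 1.56% upward. At 1.5-fold, 2 members were lower, against 7.61% of the shared probes. These were the miR-144 probes, both under the empty-spot level on the SPF array. The difference exceeded 2 technical SD downward for 4 members, against 15.0% of the shared probes. These were miR-451a, miR-144-3p and the miR-486a-3p and miR-486b-3p probes, which are not independent readings. With the spread of the empty spots the technical SD of miR-144-3p was 0.61 for a log2 of -0.77, which is within 2 technical SD. The members were proposed with earlier results of these arrays known, including the direction of 4 of the probes, so the counts are a description. In a bulk sample fewer red cells and less of a miRNA per cell cannot be told apart.

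**Figure D1:**
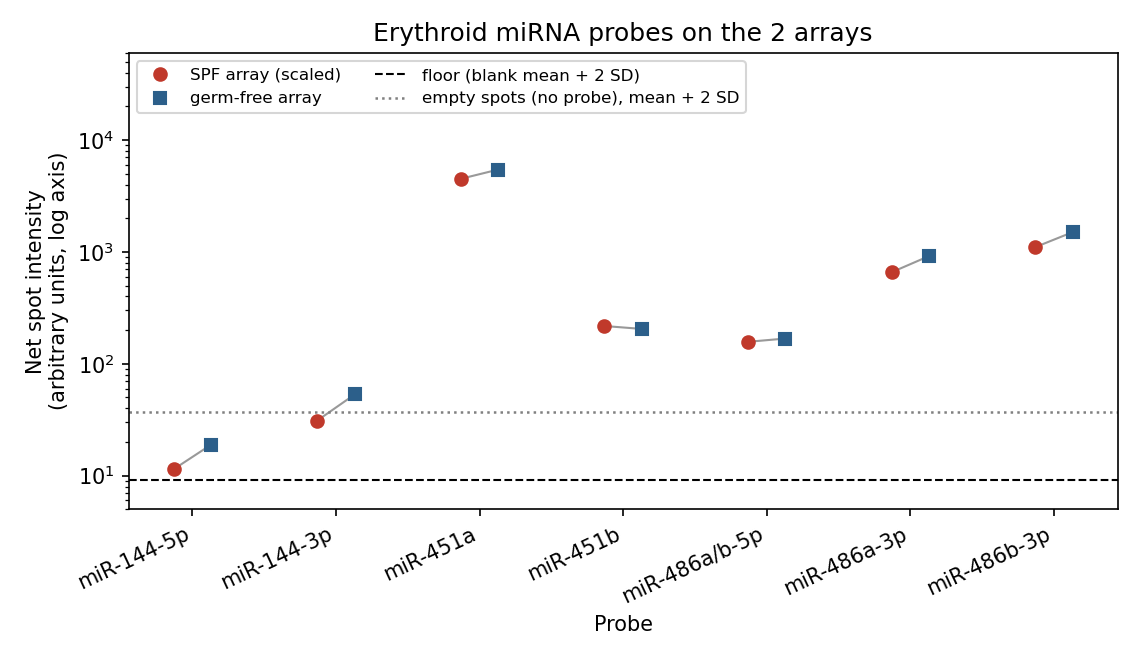
Net spot intensity (arbitrary units, log axis) of the 7 member probes, with the scaled SPF array left of the germ-free array for each probe and a grey line joining them. The dashed line is the floor and the dotted line the mean + 2 SD of empty spots. miR-451a lies far above the other members, and both miR-144 probes lie under the dotted line on the SPF array.

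miR-451a, which represses the 14-3-3 protein gene Ywhaz and protects red cells against oxidative stress in mice, was the brightest member. Its spot read 5464 on the SPF array and 5576 on the germ-free array before background subtraction. It ranked 53rd of the 1900 miRNA probes on the SPF array and 42nd on the germ-free array. After subtraction and scaling the net intensity was 4505 on the SPF array and 5447 on the germ-free array, a log2 SPF over germ-free of -0.27 ± 0.13 (technical SD). Without between-array scaling the net signals were nearly equal, at a log2 of -0.04. miR-451a fell in the brightest of 10 equal classes of shared probes. In this class of 148 probes, miR-451a included, the middle 90% of log2 values ran from -0.63 to 0.52, which includes that of miR-451a. The other 48 shared probes of its block on the array had a median of -0.22, and with block medians removed miR-451a was at -0.11.

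The local background read beside the miR-451a spot was high and differed between the arrays. It was 2515 on the SPF array, 46.0% of the spot's signal, and 4483 on the germ-free array, 80.4% of it. The 5 spots that touch it had a median signal of 273.8 on the SPF array and 241.8 on the germ-free array, far under those local background readings. With this local reading subtracted at every spot in place of the blank mean, miR-451a was higher on the SPF array, at a log2 of 0.96. The sign of the miR-451a value therefore turned with the way background was removed. Under local background subtraction the repeated control spots spread by 1.34 on the log2 scale, more than 0.96, so that value gives no clear direction. High local readings were not particular to miR-451a. For miR-486b-3p the reading was 1034 on the SPF array and 1304 on the germ-free array, 70.9% and 80.0% of its signal. For miR-451b, the shared miR-486 5p probe and both miR-144 probes it was 68.0% to 81.9% of the signal. For miR-486a-3p it was 24.8% on the SPF array and 34.6% on the germ-free array.

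miR-451b, which comes from a separate hairpin encoded by the opposite DNA strand at the same bases, was much weaker. Its spot read 414.6 on the SPF array and 333.5 on the germ-free array. The scaled net intensity was 217.6 on the SPF array and 204.9 on the germ-free array, a log2 of 0.09 ± 0.14 (technical SD), and it was the only member not lower on the SPF array. The brightest signal among the spots touching that of miR-451b was 1673 on the SPF array and 1269 on the germ-free array. Its part in the reading was not tested. The signal of miR-451a was 20.7 times that of miR-451b on the SPF array and 26.6 times on the germ-free array. Intensities of different probes also carry the binding strength of each probe, so such ratios do not give relative copy numbers. Their change between the arrays does not depend on a single factor per array, and it was -0.36 ± 0.19 on the log2 scale (-0.29 with quantile normalisation and -0.39 with loess, which act by intensity).

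miR-144, the clustered partner of miR-451a, was weak in both arms. The miR-144-3p spot read 194.9 on the SPF array, under the empty-spot level, and 181.7 on the germ-free array, above it. Its scaled net intensity was 31.1 on the SPF array and 53.2 on the germ-free array. The log2 SPF over germ-free was -0.77 ± 0.28 with the spread of the blank spots. With the wider spread of the empty spots the technical SD was 0.61, so the difference was not clearly larger than the technical error. A spot touching that of miR-144-3p read 14692 on the SPF array and 8077 on the germ-free array, and its part in the reading was not tested. The miR-144-5p spot read 171.8 on the SPF array and 147.5 on the germ-free array, under the empty-spot level on both. Its scaled net intensity of 11.4 on the SPF array and 18.9 on the germ-free array gave a log2 of -0.73 ± 0.68, which cannot be distinguished from no difference at this signal.

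miR-486, which represses Foxo1, was read by 3 probes. The miR-486b-3p spot read 1457 on the SPF array and 1630 on the germ-free array, the brightest of the 3. Its scaled net intensity was 1103 on the SPF array and 1502 on the germ-free array, a log2 of -0.45 ± 0.13. The miR-486a-3p spot read 933.3 on the SPF array and 1046 on the germ-free array. Its scaled net intensity was 658.1 on the SPF array and 917.6 on the germ-free array, a log2 of -0.48 ± 0.13. The brightest signal among the spots touching that of miR-486a-3p was 4301 on the SPF array and 4939 on the germ-free array. Its part in the reading was not tested. Both 3p probes were lower on the SPF array by more than 3 technical SD and by nearly equal amounts, with a difference between them of 0.03 ± 0.18. Within their shared class of brightness, the middle 90% of 147 probes ran from -0.62 to 0.43, which includes both. The 3p sequences of this antisense pair of genes are similar, so that 1 probe may also bind the other's target, and they are not independent readings.

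The probe for the 5p arm of both genes was weaker and lay nearer to no difference. The 5p arm is the one known to dominate in red cells, but its spot read 343.4 on the SPF array and 296.7 on the germ-free array, well under both 3p probes. The scaled net intensity was 157.2 on the SPF array and 168.2 on the germ-free array, a log2 of -0.10 ± 0.14, within 1 technical SD of no difference. The miR-486b-3p signal was 7.02 times the 5p signal on the SPF array and 8.93 times on the germ-free array. For miR-486a-3p the ratio was 4.19 on the SPF array and 5.46 on the germ-free array. These ratios were lower on the SPF array by 0.35 ± 0.19 and 0.38 ± 0.19 on the log2 scale. The arms of miR-486 thus differed in brightness in the same order on both arrays, and the lower SPF level was read by the 3p probes.

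**Figure D2:**
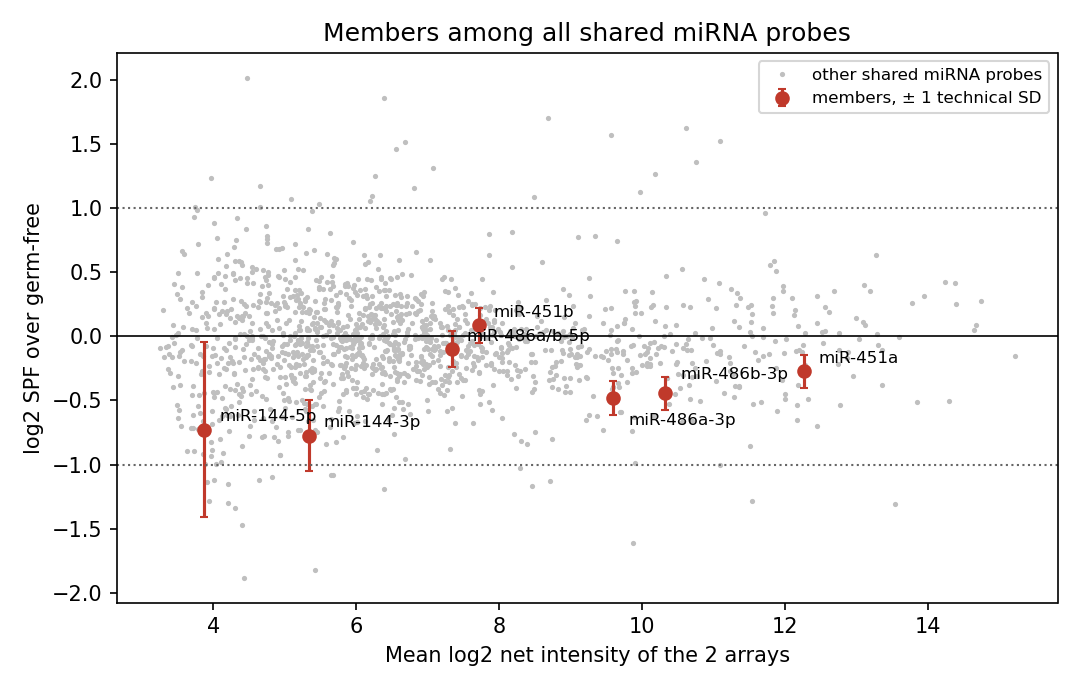
Log2 SPF over germ-free (vertical axis) against the mean log2 net intensity of both arrays (horizontal axis) for the 1471 probes above the floor on both. Red points are the members with ± 1 technical SD, grey points are all other probes, and dotted lines mark 2-fold. All members lie between the dotted lines, from -0.77 for miR-144-3p to 0.09 for miR-451b.

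In order of brightness the members ran miR-451a, miR-486b-3p, miR-486a-3p, miR-451b, the miR-486 5p probe, miR-144-3p and miR-144-5p on both arrays. By rank among the 1900 probes, miR-486b-3p was 170th on the SPF array and 143rd on the germ-free array, and miR-486a-3p was 240th on the SPF array and 198th on the germ-free array. miR-451b was 413th on the SPF array and 438th on the germ-free array. miR-144-3p was 1161st on the SPF array and 944th on the germ-free array. The 3 other miRNA probes closest to miR-451a by their net intensities on the 2 arrays were let-7d-5p at a log2 SPF over germ-free of -0.23, miR-7045-5p at -0.12 and miR-6981-5p at -0.38, with distances of 0.04, 0.12 and 0.15 log2 units. With only 2 arrays this likeness is one of level.

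The miR-451a signal was also set against that of miR-23a-3p, a miRNA that red cells hold little of and that serves as the denominator of a haemolysis index in plasma. The miR-23a-3p spot read 5506 on the SPF array and 3679 on the germ-free array. The net signal of miR-451a was 0.992 times that of miR-23a-3p on the SPF array and 1.53 times on the germ-free array. The log2 ratio was thus lower on the SPF array by 0.63 ± 0.18 (technical SD), a difference that a single scaling factor per array cannot change. It was -0.55 with quantile normalisation, -0.64 with loess and -0.43 with block medians removed. After median scaling the larger part of the difference of 0.63 lay with miR-23a-3p itself. It was higher on the SPF array, at a log2 of 0.35 ± 0.13, while miR-451a was at -0.27. This division depends on the scaling, as miR-451a was at -0.04 without scaling and -0.38 with the bright control probes set equal. Under local background subtraction the ratio had no value, because the local background of the miR-23a-3p spot, 3837, exceeded its signal on the germ-free array.

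Other miRNAs abundant in red cells but expressed in many cell types went both ways. Of 9 such miRNAs, all were above the floor on both arrays, 6 were lower on the SPF array and 3 higher, with a median of -0.24. No member of that list was 2-fold lower. The brightest, miR-16-5p, which represses cyclins and Bcl2, was at -0.38, with a scaled net intensity of 9253 on the SPF array and 12058 on the germ-free array. The lowest was miR-363-3p at -0.78, with a scaled net intensity of 25.2 on the SPF array and 43.2 on the germ-free array, and the highest was miR-22-3p at 0.46, with 720.6 on the SPF array and 525.5 on the germ-free array. Without scaling 5 of the 9 were lower and the median was -0.01. Of 7 miRNAs known to decline during red cell maturation, 3 were lower on the SPF array and 4 higher, with a median of 0.03 that was -0.08 with the bright control probes set equal. They ran from miR-150-5p, a miRNA of mature lymphocytes that represses Myb and the brightest of them, at -1.31, to miR-222-3p, which represses the stem cell factor receptor Kit, at 1.25.

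Markers of the other cells in the isolate moved on the same arrays. Of 5 leukocyte miRNAs, all were above the floor on both arrays and 4 were lower on the SPF array, against 57.6% of all shared probes. Their median was -0.66, and both arms of miR-142a are among the lower ones. Their summed scaled net intensity was 14488 on the SPF array and 29226 on the germ-free array. Much of this drop lay with miR-150-5p, at 7552 on the SPF array and 18700 on the germ-free array. With local background subtraction 4 of the leukocyte miRNAs had a value, 1 of these was lower on the SPF array and the median was 0.99. They ran from miR-150-5p at -1.31 to miR-223-3p, a miRNA of granulocytes and monocytes, at 0.74. All 6 epithelial miRNAs were higher on the SPF array, with a median of 1.31 and a sum of 13058 on the SPF array and 4944 on the germ-free array, although with local background subtraction 1 of the 4 with a value was lower. They ran from miR-141-3p at 1.09 to miR-192-5p at 1.62, with miR-200b-3p at 1.53 the brightest. The summed scaled net intensity of the 7 erythroid probes was 6684 on the SPF array and 8312 on the germ-free array. The part of these other cell types in the erythroid values was not tested. Of 5 striated muscle miRNAs, the other known source of miR-486, miR-1a-3p, miR-206-3p and miR-499-5p were under the floor on both arrays. The remaining members of that list were weak. miR-133a-3p had scaled net intensities of 25.7 on the SPF array and 24.8 on the germ-free array, at a log2 of 0.05, under the empty-spot level on both. miR-133b-3p had 49.1 on the SPF array and 53.9 on the germ-free array, at a log2 of -0.14, above that level on both.

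**Figure D3:**
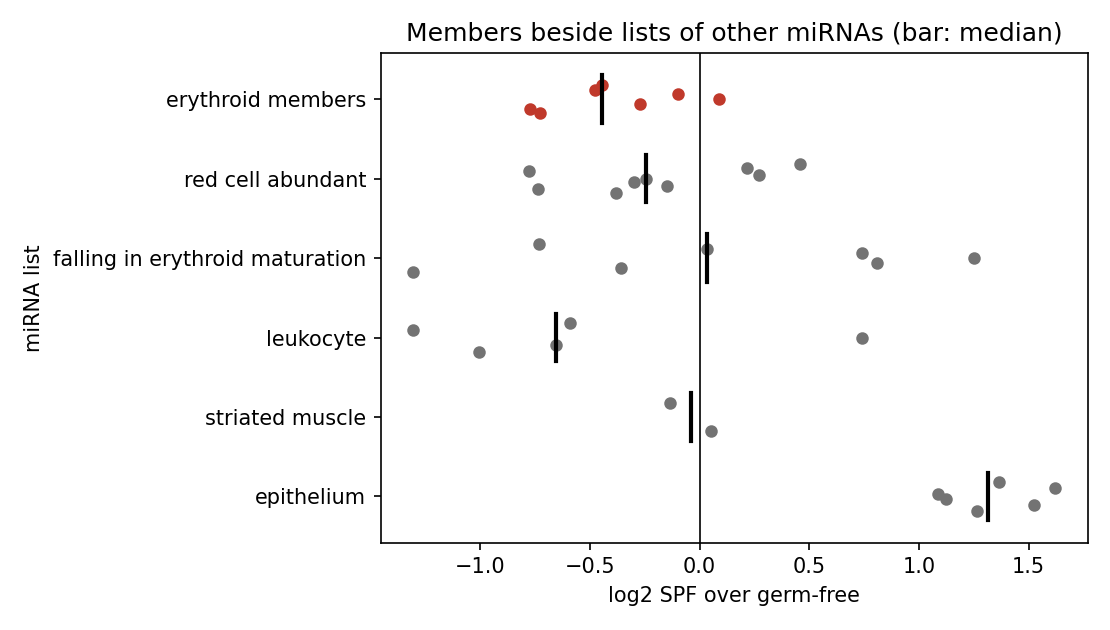
Log2 SPF over germ-free of each probe above the floor on both arrays, for the erythroid members (red) and 5 lists of other miRNAs (grey), with a black bar at each median. The erythroid median of -0.45 lies between the leukocyte median of -0.66 and the median of -0.24 of other red cell miRNAs, and the epithelial probes lie apart on the higher side.

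The member values depended on the scaling and the background to different degrees. The miR-486 3p probes were lower on the SPF array under all 13 alternatives tried on them, from -0.59 to -0.10. Both miR-144 probes were lower wherever they had a value, but without background subtraction miR-144-3p was at -0.17 and miR-144-5p at -0.06. miR-451b changed sign with the scaling, from 0.32 without scaling to -0.02 with the bright control probes set equal. The miR-486 5p probe changed sign with the scaling and the background, to 0.14 without scaling and 0.38 with local background subtraction.

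**Figure D4:**
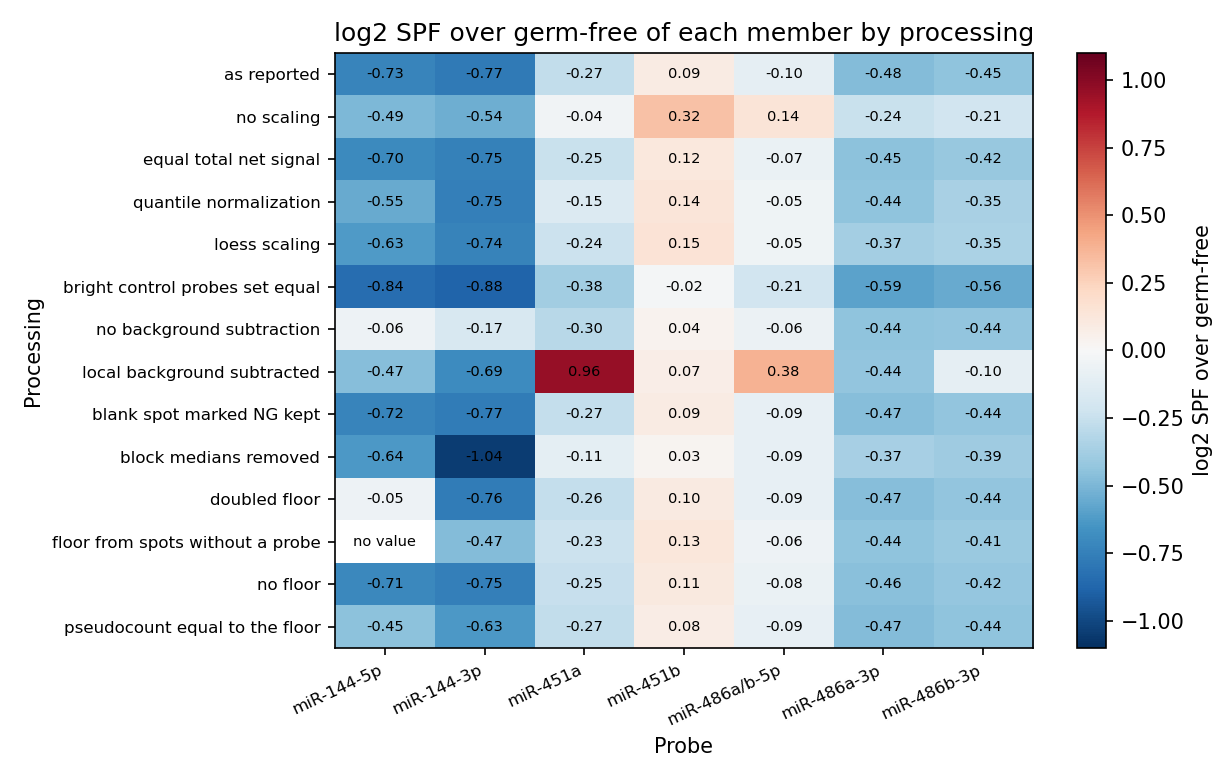
Log2 SPF over germ-free of each member probe (columns) under the reported processing and 13 alternatives (rows), with blue for lower and red for higher on the SPF array. miR-451a is at 0.96 with local background subtraction and between -0.38 and -0.04 in every other row.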

How the data were processed

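Per the labels' protocols, RNA was purified with a Qiagen kit and carried the dye Hy5, attached with an Exiqon kit. For each of 3200 spots per array the deposited files hold the authors' median intensity of the spot and of its local background, both at 635 nm, from scans at 3 gains per the file headers. The platform, scanner software and miRBase release are not stated there. Whether the deposited intensity combines the gains is not stated. The sample titles gave the groups. The number of arrays, 1 per group, limits the precision.

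Background was the mean of the spots named BLANK, leaving out 1 SPF blank spot that the file marks NG (895 and 896 spots on the SPF and germ-free arrays). On the SPF array 71.8% and on the germ-free array 66.7% of 174 empty spots, which carry no probe, lay above the floor, which is therefore permissive. Scaling, the floor and the log2 ratio were computed with Python 3.11.15, numpy 2.4.6 and pandas 2.3.3, with loess (span 0.4) from statsmodels 0.14.6. The spread of repeated spots came from 4 bright control probes (net intensity above 500, at least 8 spots). Any value under the floor was set to it. The calculation was tested on simulated arrays with known changes.

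The members, the comparison lists and the alternatives were chosen with earlier results of these data known. Named miRNAs were every member probe, the highest, lowest and brightest of each list, miR-23a-3p and the 3 probes nearest to miR-451a. Alternatives were 5 other scalings, 3 other backgrounds, removal of block medians, 3 other floors, a pseudocount, the brighter arm alone and a fold of 1.5. Gene positions are from GENCODE M21 and sequences from RefSeq, matched by name.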

Additional observations from a re-analysis of the deposited data

How the results depend on the processing

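The member median stayed under 0 under all 14 alternatives tried on it. It was -0.21 without scaling, -0.17 without background subtraction, -0.10 with local background subtraction and -0.26 with a doubled floor, and between -0.56 and -0.32 under the others. The number of members lower on the SPF array was 4 to 7, but the number counted also changed. It was 4 of 7 with local background subtraction and 7 of 7 with the bright control probes set equal. With the floor at the empty-spot level it was 4 of 5, as with the brighter arm alone. A change of scaling factor moves all probes alike, and the all-probe median and share are not given for these alternatives. No member was 2-fold lower except with block medians removed (1 member, miR-144-3p at -1.04), and 2 members passed a fold of 1.5. With local background subtraction miR-451a was higher on the SPF array, at 0.96, and the cause was not tested. The ratio of miR-451a to miR-23a-3p stayed lower on the SPF array under the 6 alternatives recorded for it. It was -0.43 with block medians removed and from -0.64 to -0.55 under the others. It had no value with local background subtraction. Block medians, quantile and loess were added for this ratio after seeing the data. With the floor raised to the empty-spot level miR-144-5p had no value, and the value of miR-144-3p there, -0.47, is a bound. No paired analysis was possible because each group has 1 array. The signal of both miR-144 arms over background limits what can be read from them.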
